A study of Rattus norvegicus with 6 samples.

Results

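The genes described here encode the factors on which the Hippo pathway ends: the coactivators YAP (Yap1) and TAZ (Wwtr1), the 4 TEAD DNA-binding proteins (Tead1 to Tead4) and 2 vestigial-like cofactors (Vgll3 and Vgll4). They were chosen by gene name, as 8 of the 33565 rows of the gene table, and each name was found once. The cells were primary heart cell cultures of Sprague-Dawley rats at postnatal day 7, labelled cardiomyocytes and kept in medium with 10% fetal bovine serum. The treated cultures received 100 nM progesterone for 24 hours, and the control cultures received vehicle. RNA enriched for mRNA gave 3 progesterone and 3 control libraries, with between 21156793 and 25376220 counts each. The labels call the 3 samples of a group biological replicates, but not whether each had its own litter or culture, and the error behind every p-value is the scatter of these 3 samples, possibly technical. The study's title places YAP between progesterone and cardiomyocyte proliferation, and the comparison was progesterone against vehicle.

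YAP and TAZ carry no DNA-binding domain and reach their target genes by binding TEAD proteins, which recognise the M-CAT element of many muscle promoters. When the Hippo kinases MST and LATS are active, YAP and TAZ are phosphorylated, held in the cytoplasm by 14-3-3 proteins or degraded, so that much of their regulation is not visible in mRNA. Vestigial-like proteins bind TEADs on a surface that YAP and TAZ also use, and VGLL4 is known in mice as an antagonist of YAP. In the mouse heart, active YAP drives proliferation of cardiomyocytes, and loss of either YAP or TEAD1 before birth leaves a thin ventricular wall.

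The TEAD recognition motif was looked for in the promoters of the factors themselves. Promoter windows, from 250 bases before to 50 bases after a transcript start, were taken from RefSeq (build GRCr8) and were matched for 5 of the 8 genes, with 8 windows in all. Tead1, Tead2 and Tead4 had no window in the table used. The sequences below are shown because they hold the motif core GGAATG, or its reverse complement CATTCC, in capitals, except that of Wwtr1, which is shown because Wwtr1 moved opposite to Yap1 and its window holds no match. The window of Tead3, which rose, holds no match either and is not shown. The window of Ccn2, a TEAD target, is shown beside these sequences. They are 5′ to 3′ on the strand of the gene.
Yap1 (chr8:13451388-13451687, minus strand): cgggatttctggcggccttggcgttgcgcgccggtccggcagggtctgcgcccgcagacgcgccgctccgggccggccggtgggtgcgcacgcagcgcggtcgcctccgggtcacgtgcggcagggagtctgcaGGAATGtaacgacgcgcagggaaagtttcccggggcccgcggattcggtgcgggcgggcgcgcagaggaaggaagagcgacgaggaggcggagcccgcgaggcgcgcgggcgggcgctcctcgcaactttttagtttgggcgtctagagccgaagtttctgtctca
Wwtr1 (chr2:143916892-143917191, minus strand): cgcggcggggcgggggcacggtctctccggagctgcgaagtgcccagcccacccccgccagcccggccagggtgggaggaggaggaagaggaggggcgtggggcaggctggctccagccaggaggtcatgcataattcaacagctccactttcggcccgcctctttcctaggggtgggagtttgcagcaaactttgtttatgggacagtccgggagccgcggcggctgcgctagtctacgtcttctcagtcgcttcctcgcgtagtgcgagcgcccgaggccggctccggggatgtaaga
Vgll3, the more upstream of 2 windows (chr11:17089342-17089641, plus strand): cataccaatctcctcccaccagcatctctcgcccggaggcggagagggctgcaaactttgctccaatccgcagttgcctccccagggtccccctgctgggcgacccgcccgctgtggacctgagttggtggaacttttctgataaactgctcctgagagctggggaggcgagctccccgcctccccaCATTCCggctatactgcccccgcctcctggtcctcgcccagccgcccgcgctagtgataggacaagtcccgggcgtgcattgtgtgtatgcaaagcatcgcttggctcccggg
Vgll4, the middle of 3 windows (chr4:149710165-149710464, minus strand): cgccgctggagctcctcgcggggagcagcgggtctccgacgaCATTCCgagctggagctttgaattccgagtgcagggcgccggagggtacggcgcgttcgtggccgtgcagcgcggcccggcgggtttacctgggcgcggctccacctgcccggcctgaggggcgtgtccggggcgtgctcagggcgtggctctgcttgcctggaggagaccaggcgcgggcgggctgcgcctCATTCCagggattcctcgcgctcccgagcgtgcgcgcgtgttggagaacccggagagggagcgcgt
Ccn2 (chr1:22624565-22624864, minus strand): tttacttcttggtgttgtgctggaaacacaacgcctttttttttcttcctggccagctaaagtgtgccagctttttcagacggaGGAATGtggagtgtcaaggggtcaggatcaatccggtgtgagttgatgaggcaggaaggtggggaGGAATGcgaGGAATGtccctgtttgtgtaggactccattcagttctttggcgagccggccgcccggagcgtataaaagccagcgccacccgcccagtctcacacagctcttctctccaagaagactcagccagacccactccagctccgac

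The motif core was present, on either strand, in 3 of the 8 windows of these factors, against 14.2% of the 33469 promoter windows of the same length in the RefSeq table. The match in Yap1 lay at -116 to -111, counted in bases from the transcript start, and that in Vgll3 at -63 to -58. Vgll4 had matches at -208 to -203 and at -16 to -11 in its middle window, and its level did not change (log2 fold change -0.02). No match was found in the windows of Wwtr1, which fell, and Tead3, which rose. Ccn2 had 3 matches, at -166 to -161, -101 to -96 and -92 to -87. Among 15 YAP/TAZ-TEAD target genes with a window, 5 held the motif. The windows of these factors held no match to the steroid receptor element (GNACA and TGTNC with 3 bases between), found in 0.439% of all windows, or to the interferon response core (GAAA repeated with 2 bases between), found in 3.92%. Both strands were searched. A match describes letters in the window and is not evidence of binding.

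**Figure D1:**
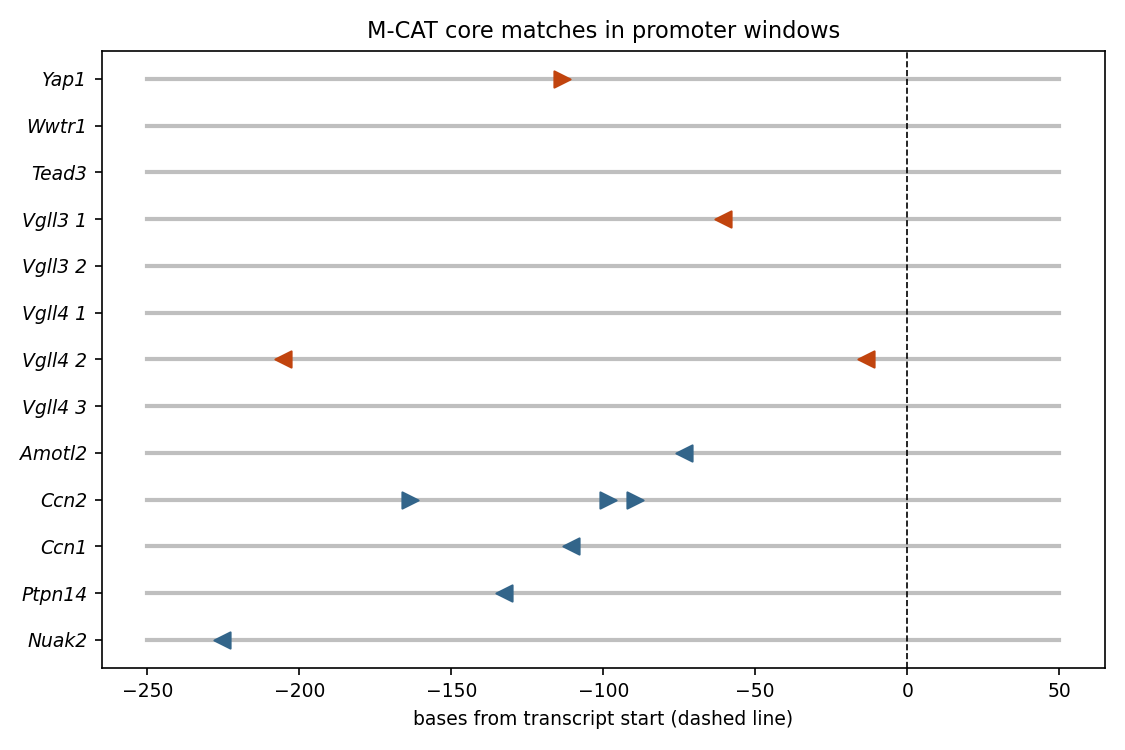
Positions of the M-CAT core GGAATG in promoter windows, in bases from the transcript start (x axis), with 1 line per window. Arrowheads point right for a match on the strand of the gene and left for one on the other strand, red for the YAP, TAZ, TEAD and VGLL genes and blue for target genes with a match; Ccn2 has 3 matches and Vgll4 has 2 in its middle window.

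All 8 genes were expressed in both groups, at levels that ran over more than an order of magnitude. In FPKM, the deposited level per gene length and library total, Yap1 and Tead1 ranked first and second with progesterone and second and first in the controls. With progesterone the order was Yap1 at 62.4 ± 1.42, Tead1 at 60.1 ± 1.79, Vgll3 at 34.4 ± 2.95, Wwtr1 at 33.8 ± 0.327, Vgll4 at 19.5 ± 1.58, Tead2 at 17.4 ± 0.563, Tead3 at 12.99 ± 0.536 and Tead4 at 2.71 ± 0.501 FPKM (SD, n = 3). In the controls it was Tead1 at 48.6 ± 3.34, Yap1 at 42.7 ± 3.54, Wwtr1 at 41.8 ± 1.21, Vgll3 at 29.3 ± 1.64, Vgll4 at 19.9 ± 2.45, Tead2 at 16.9 ± 0.830, Tead3 at 9.65 ± 0.798 and Tead4 at 3.72 ± 0.347 FPKM. Neighbours in this order whose libraries overlapped were Yap1 and Tead1, and Vgll3 and Wwtr1, with progesterone. In the controls Tead1 overlapped with Yap1, Yap1 with Wwtr1, and Vgll4 with Tead2. Among the 15075 genes tested, Yap1 stood at the 91.5th percentile of FPKM with progesterone and at the 86.2nd in the controls, whereas Tead4 stood at the 27.2nd and the 31.1st. Levels between genes rest on the gene lengths in the table, from 1218 bases for Vgll3 to 5874 bases for Tead3.

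**Figure D2:**
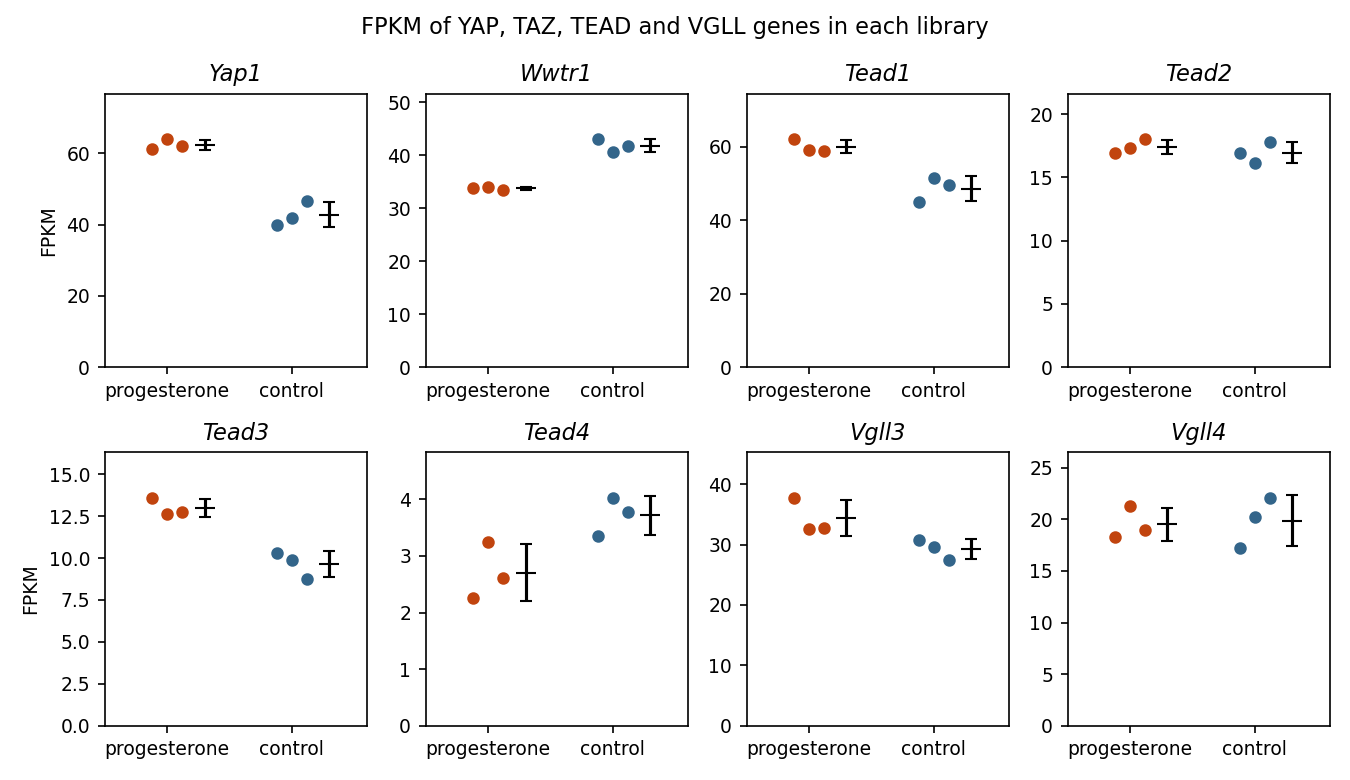
FPKM of each gene (y axis, starting at 0 and scaled per gene) in the 3 progesterone libraries (red, left) and the 3 control libraries (blue, right); points are libraries and black bars are mean ± SD. Yap1, Tead1, Tead3 and Vgll3 were higher in all 3 progesterone libraries, Wwtr1 and Tead4 were lower in all 3, and Tead2 and Vgll4 overlapped.

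Progesterone changed 6 of these 8 genes, 4 upwards (Yap1, Tead3, Tead1 and Vgll3) and 2 downwards (Tead4 and Wwtr1), at an adjusted p under 0.05 in edgeR's quasi-likelihood test. This share has to be read against the whole table, in which 63.0% of 15075 genes changed, 31.2% higher and 31.8% lower, so that 6 of 8 is near the background. With upper quartile scaling 60.1% of all changed genes were higher, against 49.6% with TMM scaling, and the direction of the 6 changed genes was the same under both. The groups did not overlap in the same 6 genes, again near the background of 68.6%. The 8 genes had a median of 0.14 on the log2 scale, against 0.00 for all genes tested. The changes were moderate. The largest, that of Yap1, was exceeded in size by 34% of all genes tested.

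Yap1 encodes YAP. Its row in the gene table is ENSRNOG00000005933, chromosome 8, 6135493 to 6203579, minus strand, in coordinates of an unnamed rat build, as for the other genes. It had 61.2, 64.0 and 62.0 FPKM in the progesterone libraries, against 39.8, 41.7 and 46.6 FPKM in the control libraries. Every progesterone library lay above every control library, and the controls were spread more widely (coefficient of variation 2.27% with progesterone and 8.28% in the controls). Yap1 rose 1.46-fold (log2 fold change 0.55 ± 0.06, SE; 95% interval 0.43 to 0.67; edgeR adjusted p = 4.42e-07).

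Wwtr1 encodes TAZ, the paralog of YAP, and moved the other way. Its row is ENSRNOG00000016617, chromosome 2, 147577089 to 147693082, minus strand. It had 33.9, 34.0 and 33.4 FPKM in the progesterone libraries, against 43.0, 40.6 and 41.7 FPKM in the control libraries. The groups were apart and each was tight, with the progesterone libraries within 1 FPKM of one another. Wwtr1 fell, with a log2 fold change of -0.31 ± 0.04 (SE; 95% interval -0.40 to -0.21; edgeR adjusted p = 2.2e-05), a level 1.24-fold lower than in the controls.

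The balance between both coactivators differed between the groups. Yap1 made up 64.3%, 65.3% and 64.99% of the summed Yap1 and Wwtr1 FPKM in the progesterone libraries, against 48.01%, 50.7% and 52.8% in the control libraries. The ratio of Yap1 to Wwtr1 FPKM was 1.85 ± 0.0391 with progesterone and 1.02 ± 0.0970 in the controls (SD, n = 3), and the groups did not overlap. Their sum was 96.1 ± 1.56 FPKM with progesterone and 84.5 ± 3.34 FPKM in the controls, also without overlap.

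Tead1, the TEAD gene known to be needed for heart development in the mouse, was the most highly expressed of the 4. Its row is ENSRNOG00000015488, chromosome 1, 177495782 to 177707061, plus strand. It had 62.1, 59.1 and 59.0 FPKM in the progesterone libraries, against 44.9, 51.4 and 49.5 FPKM in the control libraries. The groups did not overlap, and the lowest value was that of control replicate 1. Tead1 rose 1.24-fold (log2 fold change 0.31 ± 0.05, SE; edgeR adjusted p = 9.24e-05). Rows that overlap Tead1 in the table held at most 12 counts over the 6 libraries.

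Tead3, which encodes a TEAD protein known from human placenta, had 13.6, 12.6 and 12.7 FPKM in the progesterone libraries, against 10.3, 9.87 and 8.77 FPKM in the control libraries. Every progesterone library was above every control library. The gene's row (ENSRNOG00000000506, chromosome 20, 7908226 to 7930929, minus strand) is the longest model of the 8. Tead3 rose 1.35-fold (log2 fold change 0.43 ± 0.06, SE; edgeR adjusted p = 1.07e-05), the largest increase among the TEAD genes. Reads of a neighbouring gene may be included. The row of Rpl10a, a ribosomal protein gene, lies wholly inside that of Tead3 on the opposite strand (chromosome 20, 7908304 to 7910867 within 7908226 to 7930929, rat build not named) and was listed at 0 counts in all 6 libraries. How reads from the shared stretch were counted, and whether strand was used, is unknown here. Of 68 tested ribosomal protein rows, a set chosen after this was seen, 56 were higher and 2 lower. Their median log2 fold change was 0.30. Among all genes tested, 31.2% were higher and 31.8% lower. Rpl10a itself, at 0 counts, was not among the 68 rows. The part of ribosomal protein reads in the rise of Tead3 was not tested.

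Tead4, known in the mouse for its role in the first lineage choice of the embryo, was the least expressed of the 8 genes. Its row is ENSRNOG00000005608, chromosome 4, 161540130 to 161587222, minus strand. It had 2.26, 3.25 and 2.61 FPKM in the progesterone libraries, against 3.35, 4.03 and 3.77 FPKM in the control libraries. The highest progesterone library, replicate 2, came close to the lowest control library, replicate 1, without reaching it. Tead4 fell, with a log2 fold change of -0.46 ± 0.12 (SE; 95% interval -0.73 to -0.18; edgeR adjusted p = 0.00762), and its interval was the widest of the 8, at 252 to 496 counts per library. A row that RefSeq lists as Tead4l1 had no count in any library.

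Tead2, which in the mouse is prominent in early embryos, did not pass the test. Its row is ENSRNOG00000020695, chromosome 1, 101213788 to 101230477, plus strand. It had 16.9, 17.3 and 18.02 FPKM in the progesterone libraries, against 16.9, 16.1 and 17.8 FPKM in the control libraries, and the groups overlapped. Its log2 fold change was 0.04 ± 0.06 (SE; edgeR adjusted p = 0.555), with a 95% interval from -0.08 to 0.17.

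Within the TEAD family, the shares of Tead1 and Tead3 were higher and those of Tead2 and Tead4 lower with progesterone. Tead1 made up 64.5% ± 0.867 of the summed TEAD FPKM with progesterone and 61.6% ± 1.88 in the controls, and Tead2 made up 18.7% ± 0.846 and 21.5% ± 1.48 (SD, n = 3). For Tead4 the shares were 2.91% ± 0.575 with progesterone and 4.70% ± 0.262 in the controls, and for Tead3 13.9% ± 0.345 and 12.3% ± 1.35. None of these 4 shares overlapped between the groups, where 68.6% of all genes tested did not overlap in CPM. The shares of a library are parts of one sum, so they are not separate results. That of Tead2 was lower although its own level did not pass the test (log2 fold change 0.04). The shares of Tead3 came within 0.1 percentage points (13.7% in progesterone replicate 2 and in control replicate 1). The difference in the Tead3 share, 1.68 percentage points, was 1.04 without control replicate 3 and 3.93 with raw counts in place of FPKM. That in the Tead1 share, 2.90 points, was 1.87 without control replicate 1, and that in the Tead4 share, -1.79 points, was -3.68 with raw counts. The summed TEAD level was 94.9, 92.2 and 92.4 FPKM with progesterone and 75.5, 81.4 and 79.8 FPKM in the controls. Since the coactivators and the TEADs were both higher in sum, the ratio of summed Yap1 and Wwtr1 to summed TEAD overlapped between the groups, at 1.03 ± 0.0299 with progesterone and 1.07 ± 0.0521 in the controls. Each TEAD share, the summed TEAD level and this ratio include the Tead3 row, which may hold reads of Rpl10a.

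**Figure D3:**
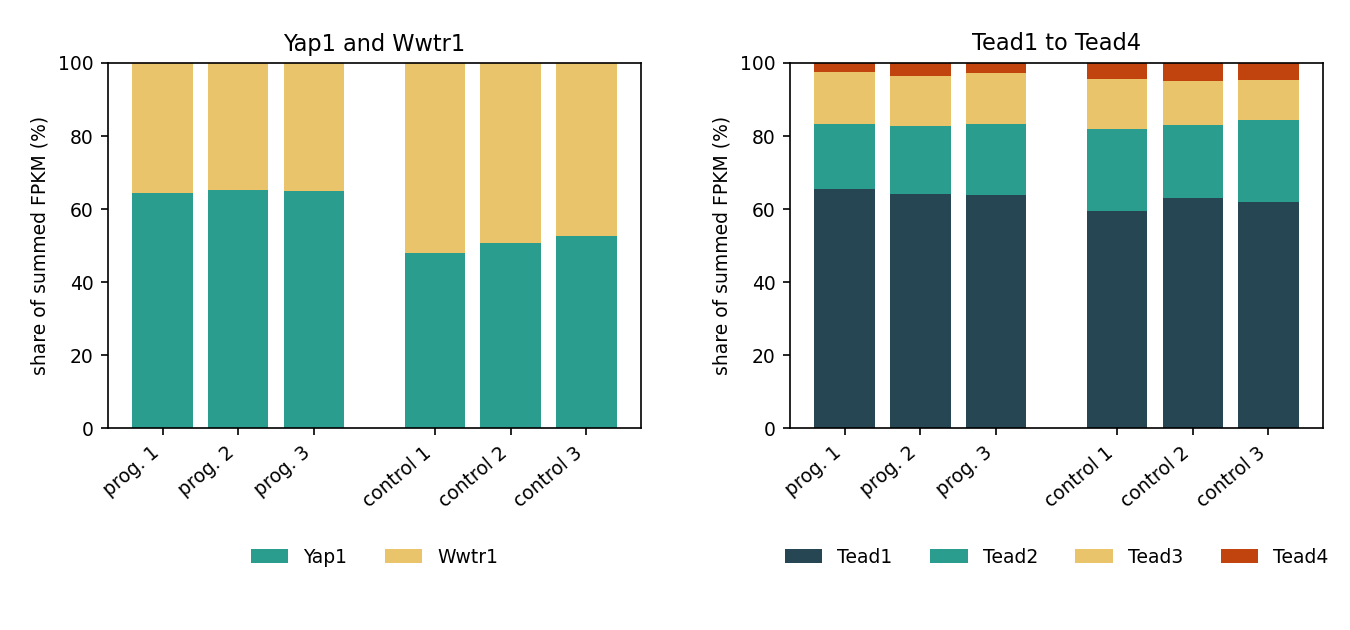
Share of the summed FPKM (y axis, percent) taken by Yap1 and Wwtr1 (left) and by Tead1 to Tead4 (right) in each library (x axis), the 3 progesterone libraries left of the 3 control libraries. Yap1 takes 64.3% to 65.3% with progesterone and 48.01% to 52.8% in the controls, while Tead1 takes the most of the TEAD sum in every library.

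Of the vestigial-like cofactors, Vgll3 changed and Vgll4 did not pass. Their rows are ENSRNOG00000028774, chromosome 11, 3119885 to 3164751, plus strand, and ENSRNOG00000007822, chromosome 4, 146779276 to 146839397, minus strand. Vgll3, a TEAD cofactor known from muscle precursors and fibroblasts, had 37.8, 32.6 and 32.7 FPKM in the progesterone libraries, against 30.7, 29.7 and 27.5 FPKM in the control libraries. The groups did not overlap, and progesterone replicate 1 stood above the other 2. Vgll3 rose 1.17-fold (log2 fold change 0.23 ± 0.07, SE; edgeR adjusted p = 0.008). Vgll4, the YAP antagonist, had 18.3, 21.3 and 19.0 FPKM in the progesterone libraries, against 17.3, 20.2 and 22.1 FPKM in the control libraries, and the lowest and the highest of the 6 values were both controls. Its log2 fold change was -0.02 ± 0.09 (SE; edgeR adjusted p = 0.847), with a 95% interval from -0.22 to 0.18. The ratio of Yap1 to Vgll4 FPKM was 3.20 ± 0.180 with progesterone and 2.16 ± 0.128 in the controls, without overlap. Vgll2, which is known from skeletal muscle, had 3 counts over the progesterone libraries and none over the control libraries, too few to test.

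**Figure D4:**
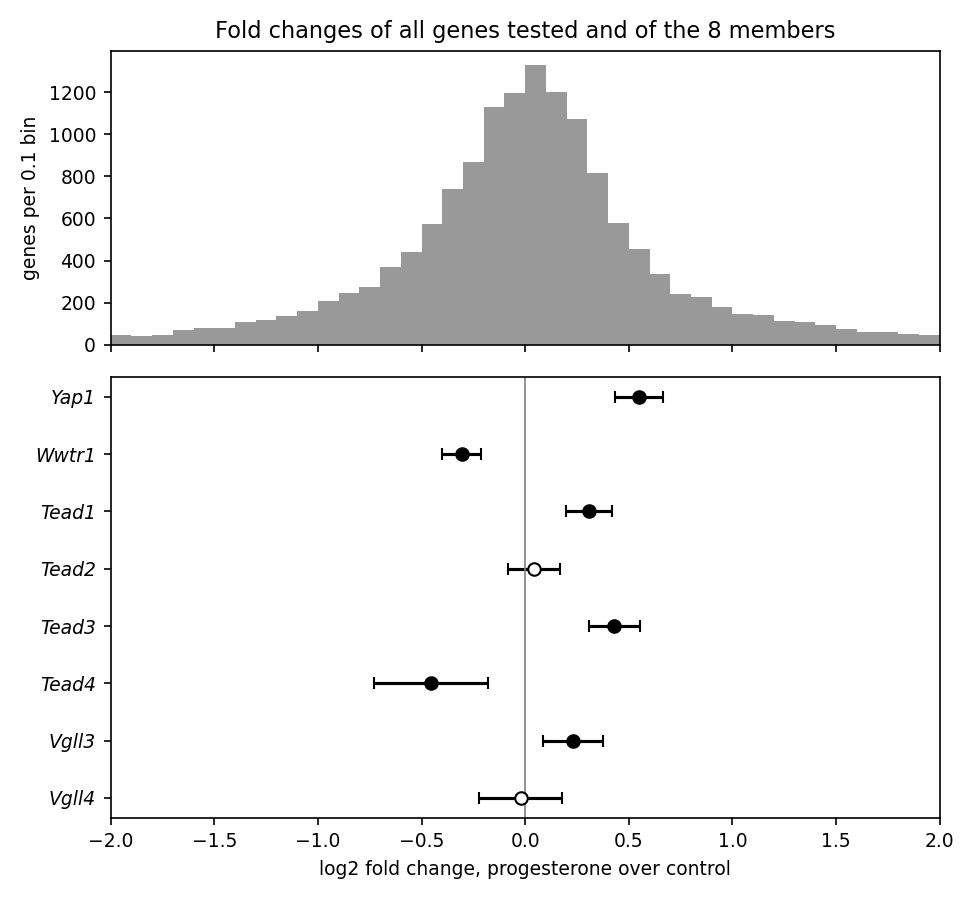
Lower panel, fitted log2 fold change of each gene, progesterone over control (x axis), with 95% intervals; filled points have an edgeR adjusted p under 0.05. Upper panel, the same quantity for all 15075 genes tested, as genes per bin of 0.1, with 810 genes beyond 2 in either direction not drawn; the 8 genes lie in the central part of this distribution.

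Among all genes tested, the nearest to each factor were sought by the root mean square difference of log2 CPM (counts scaled by TMM) over the 6 libraries, each gene centred on its own mean. The group difference dominates such a measure, and many genes lie close: 314 within 0.1 of Yap1 and 1715 within 0.1 of Wwtr1, but 27 of Tead4. Nearest to Yap1 were Slc25a15, a mitochondrial ornithine carrier, at 0.0194, Cap2, an actin regulator of heart muscle, at 0.0292 and Trpt1 at 0.0308. Nearest to Wwtr1 were Plod3, a collagen-modifying enzyme, at 0.0152, Slc35c1 at 0.0199 and Cyb5r3 at 0.02. Rnf126, Fam49b and Purb were nearest to Tead1, Dock1, Dhx8 and Bmi1 to Tead2, and Ckap4, Erf and Trub1 to Tead3. An assembled locus without a gene name, Abhd18 and Rtl6 were nearest to Tead4, Wdr46, Gpc4 and Letmd1 to Vgll3, and another unnamed locus, Net1 and Ryr3 to Vgll4.

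Of a list of 22 YAP/TAZ-TEAD target genes, assembled from general knowledge, 21 were tested. With progesterone 8 of them rose and 7 fell, near the 31.2% higher and 31.8% lower among all genes tested, and the median change of the list was 0.09 on the log2 scale, against 0.00 for all genes. The strongest increases by p were those of Tgfb2, a TGF-beta ligand, at 285 ± 16.2 CPM with progesterone and 110 ± 7.99 CPM in the controls (log2 fold change 1.37 ± 0.06, SE), Fjx1 (0.95 ± 0.07), F3, which encodes tissue factor (1.26 ± 0.09), and Crim1 (1.01 ± 0.07). The strongest decreases were those of Axl, a receptor tyrosine kinase (-0.94 ± 0.05), Igfbp3, an IGF binding protein (-2.24 ± 0.07), Nuak2, a kinase (-0.68 ± 0.10), and Ptpn14, a phosphatase that binds YAP (-0.27 ± 0.06). Their edgeR adjusted p ran from 6.48e-11 for Tgfb2 to 0.000732 for Ptpn14. The 5 targets with the M-CAT core in their promoter window, named for that match, also differed in direction. Ccn2 (1.89 ± 0.09) and Ccn1 (1.72 ± 0.15), which encode matricellular proteins, rose, while Nuak2 and Ptpn14 fell and Amotl2, an angiomotin that binds YAP, had -0.09 ± 0.06 and did not pass (edgeR adjusted p = 0.207). Amotl2 was slightly positive with upper quartile scaling (0.01), and it passed without progesterone replicate 1 (-0.15).

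Of 6 muscle genes with a known M-CAT element in their promoter, 4 rose and 2 fell (median log2 fold change 0.39), where 63.0% of all genes tested changed. Acta1, skeletal alpha-actin (1.80 ± 0.06, SE), Acta2, smooth muscle alpha-actin (1.92 ± 0.14), Nppb, the B-type natriuretic peptide gene (0.64 ± 0.09), and Myh7, beta myosin heavy chain (0.14 ± 0.04), rose. Myh6, alpha myosin heavy chain (-0.33 ± 0.05), and Tnnt2, cardiac troponin T (-0.29 ± 0.05), fell. Their edgeR adjusted p ran from 8.48e-11 for Acta1 to 0.0119 for Myh7, and the call of Myh7 was lost without progesterone replicate 2.

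Genes whose products act on YAP and TAZ, or beside them, were counted in 3 groups, to be read against the 63.0% of all genes tested that changed. Of 20 Hippo kinases and adaptors, 7 rose and 8 fell, for a median of -0.03 on the log2 scale. The 15 changed genes became 10 without control replicate 2, 11 without progesterone replicate 3 and 16 with library size scaling. Amot, an angiomotin (0.80 ± 0.08, SE), Mob1b, a LATS cofactor (0.47 ± 0.05), Taok2 (0.25 ± 0.04) and Frmd6 (0.25 ± 0.05) rose, and Taok3 (-0.73 ± 0.09), Nf2, merlin (-0.34 ± 0.04), Wwc2 (-0.33 ± 0.04) and Ptpn14 fell. Lats2, Amotl2 and Ptpn14 stand both in this group and among the targets. Of 11 genes for the 14-3-3 proteins, casein kinase 1 and beta-TrCP, which retain or degrade YAP and TAZ, 5 were higher and 1 lower (median 0.09), with small changes. Ywhag (0.15 ± 0.04), Ywhab (0.13 ± 0.04), Ywhaq (0.10 ± 0.04) and Ywhaz (0.10 ± 0.04) encode 14-3-3 proteins and rose, while Btrc, beta-TrCP, fell (-0.19 ± 0.05). The calls of Ywhaq and Ywhaz (edgeR adjusted p = 0.04 and 0.0468) were each lost in 9 of 15 alternative settings, that of Ywhab without control replicate 3, and that of Btrc with upper quartile scaling (-0.09). This count of 6 was 2 without control replicate 3, and 3 without any of progesterone replicates 1, 2 and 3 or control replicate 2. Of 19 tested transcription factors that act with YAP, TAZ, TEAD or VGLL proteins, 11 were higher and 5 lower (median 0.19). Runx1 (1.40 ± 0.08), Srf, serum response factor (0.89 ± 0.04), Irf2bp2, a partner of VGLL4 (0.54 ± 0.05), and Jun (0.46 ± 0.06) rose, whereas Smad3 (-0.81 ± 0.05), Junb (-0.67 ± 0.04), Max (-0.56 ± 0.05) and Fosl2 (-0.46 ± 0.08) fell.

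**Figure D5:**
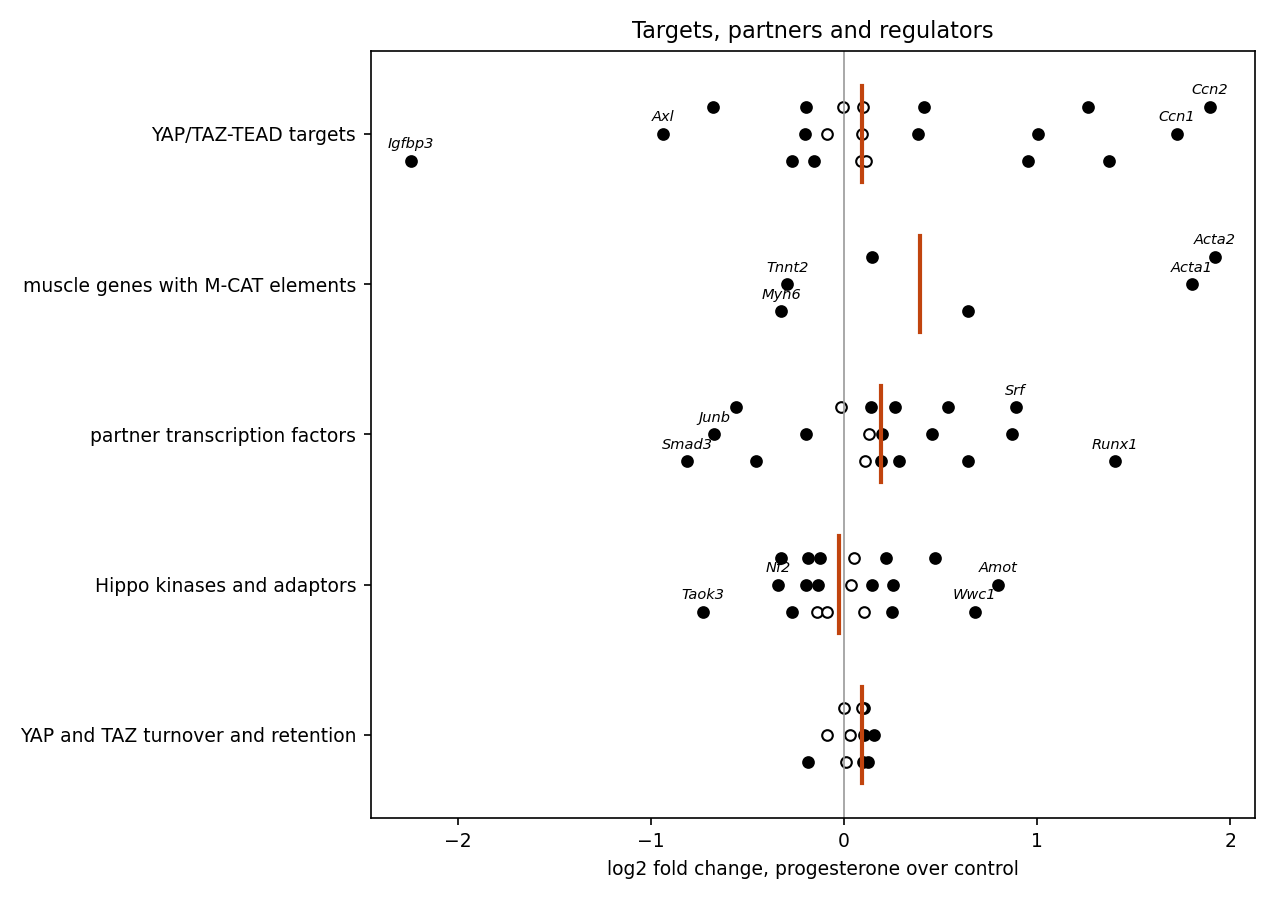
Log2 fold change, progesterone over control (x axis), of each tested gene of 5 pathway groups (y axis; small vertical offsets only separate points). Filled points have an edgeR adjusted p under 0.05, red bars are group medians and the outermost genes are named; targets run from Igfbp3 (-2.24) to Ccn2 (1.89), while the 14-3-3 and degradation genes lie close to 0.

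Markers of several cell types differed between the same libraries. In bulk RNA, fewer cells of a type cannot be told apart from less RNA per cell. Counts of markers are to be read against the 31.2% higher and 31.8% lower among all genes tested. For cardiomyocyte markers (5 of 8 changed) and endothelial markers (4 of 7) the counts were near the 63.0% of all genes. Cardiomyocyte markers were plentiful, at a summed 3120 to 3477 FPKM over 8 genes with progesterone and 3799 to 3971 FPKM in the controls, with 1 higher and 4 lower. Fibroblast markers summed to 8269 to 8867 FPKM with progesterone and 6279 to 6738 FPKM in the controls (5 of 9 higher, 3 lower), so the cultures labelled cardiomyocytes also held much RNA of fibroblast markers. Col3a1 (log2 fold change 1.07), Thy1 (1.07), Postn (0.97), Tcf21 (0.36) and Col1a1 (0.17) were higher. Dcn (-1.15), Pdgfra (-1.12) and Ddr2 (-0.69) were lower. Col3a1 alone had 2751 to 2977 FPKM with progesterone and 1312 to 1430 FPKM in the controls. Smooth muscle and pericyte markers summed to 2817 to 3183 FPKM with progesterone and 957 to 1235 FPKM in the controls (9 of 9 higher), and Acta2 of the M-CAT group is among them. Leukocyte markers summed to 119 to 132 FPKM with progesterone and 21.5 to 31.9 FPKM in the controls, with 5 of 6 tested higher, Cd3e at 0 counts in every library. Endothelial markers summed to 30.0 to 41.1 FPKM with progesterone and 40.9 to 52.7 FPKM in the controls (2 of 7 higher, 2 lower). Epicardial and mesothelial markers summed to 61.9 to 66.7 FPKM with progesterone and 49.5 to 53.6 FPKM in the controls (2 of 6 higher, 3 lower). Upk3b (log2 fold change 2.50) and Msln (1.15) were higher, and Upk1b (-1.34), Krt19 (-0.43) and Tbx18 (-0.17) were lower. The part of cell composition in the changes of the YAP, TAZ, TEAD and VGLL genes was not tested.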

How the data were processed

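mRNA-enriched RNA of 3 progesterone and 3 control cultures was sequenced after TruSeq RNA library preparation, per the labels' protocols. Per the submitters' processing notes, Bowtie 0.12.2 was used and the genome was mm8; the gene identifiers are nevertheless rat ones. Rat build, annotation, counter and strand setting: not given in the sources. Gene counts and FPKM were both deposited, and the divisor implied by these FPKM values was within 1.57% of each library's count total.

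Of 33565 rows, 682 had no gene name. Assembled loci, picked by the prefix of their identifier, held 0.826% to 0.896% of each library's counts. Rows named by a clone or locus code took the symbol of the NCBI accession in their description where there was one (295 rows). Listed genes still absent were sought under an older symbol.

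The main test on counts used edgeR 4.0.16 under R 4.3.3 (filterByExpr, min.count 10 and min.total.count 15; TMM; robust glmQLFit and glmQLFTest, Benjamini-Hochberg over 15075 genes at 0.05). The biological coefficient of variation was 9.04%. The SE was derived from the F statistic. The script was tested on simulated data with few changed genes. Since 63.0% of genes changed here, that test does not cover the scaling of these data. Other settings tried were scaling by RLE, upper quartile or library size alone, no filter, a filter of 1 CPM in 3 libraries, DESeq2 1.42.0, limma 3.58.1 on log2(FPKM + 1) and log2(FPKM + 0.1), a replicate block and each library left out. Levels and shares use FPKM and have no test.

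Log2 CPM correlated at 0.9885 to 0.9899 within groups and 0.9054 to 0.9143 between them, and no 2 libraries of a group were as close as sampling alone would make them (chi-square over degrees of freedom 5.67 to 9.88). Pathway genes named are up to 4 higher and 4 lower per list by p, all M-CAT genes, and the 3 nearest genes per factor. The genes, lists and tests were chosen with earlier results of these data known.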

Additional observations from a re-analysis of the deposited data

How the results depend on the processing

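In every alternative run, 6 of the 8 factors changed, and Yap1, Wwtr1, Tead1, Tead3, Tead4 and Vgll3 each kept direction and call. The log2 fold change of Yap1 ran from 0.50 to 0.65 and that of Wwtr1 from -0.33 to -0.21. The adjusted p of Tead4 reached 0.0421 and that of Vgll3 0.0459 when 1 progesterone library was left out. Vgll4, which did not pass, turned positive with upper quartile scaling (0.074) and ran from -0.12 to 0.058 with each library left out. Genes changed over the whole table numbered 8608 to 9871. The share differences (progesterone minus control) in percentage points, with raw counts in place of FPKM, were 3.93 for Tead3 and -3.68 for Tead4, against 1.68 and -1.79, since both have long gene models. The 6 changed retention and degradation genes became 3 with library size scaling, without a filter and with limma at either pseudocount, and 2 to 6 with each library left out; the cause was not tested. No pairing by replicate number was seen (correlations of same-numbered deviations 0.0492, 0.018 and -0.000936). Not every sample correlated best with its own number. With 3 samples per group this measure cannot decide whether the samples were paired. With a replicate block 9508 genes and 6 of the 8 factors changed, against 9497 and 6 without it. The SE of Tead4 was 0.086 with the block and 0.124 without it, and that of Wwtr1 was 0.047 and 0.045. Of 915 alternative values of 61 other named genes, 855 kept direction and call, 39 lost the call, 9 gained it and 12 turned direction. Those that turned were all of genes that did not pass: Amotl2 (0.0092), Ryr3 (0.046) and the unnamed locus nearest to Vgll4 (0.082) with upper quartile scaling, and, with each library left out, Dhx8 (-0.013 to 0.051), Bmi1 (-0.0018 to 0.058), Net1 (-0.037 to 0.078), Ryr3 (-0.12 to 0.040) and that locus (-0.10 to 0.078). Tead4 had the fewest counts of the 8 factors, 252 in its lowest library, and a coefficient of variation of 18.5% with progesterone and 9.32% in the controls.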
